A study of Mus musculus with 6 samples.

Results

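The genes described here are 9 karyopherins, the carrier proteins that move cargo through the nuclear pore, and Gm10259, a processed pseudogene that is a near copy of the karyopherin gene Kpna2. The karyopherins are the importin α genes Kpna1, Kpna2, Kpna3, Kpna4 and Kpna6, the importin β family genes Kpnb1, Ipo7 and Tnpo1, and the exportin gene Xpo1. They are 10 of the 29199 genes with a count in these data and were found by their symbols. They were selected because Kpna1 was lower, and Gm10259 was counted at all, in a single arm of the comparison described here, so their differences between the groups are given as a description, and the calls of the fits over all genes, given once, are not read as a test of them.

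RNA was sequenced from regulatory CD4 T cells (Treg) in 6 libraries. In all of them the Treg were wild type (WT), came from B6 Foxp3-Thy1.1 mice, in which Thy1.1 marks cells that express Foxp3, and had been expanded ex vivo with IL-2, TGF-β and CD3/CD28 beads. They were injected into lethally irradiated B6 mice together with a mixture of B6 and semi-allogeneic B6D2F1 bone marrow and with naive conventional CD4 T cells (Tconv), and were recovered from the spleen 3 weeks later by sorting on CD4, Thy1.1 and H-2K markers. The groups differed in the Tconv alone. In 3 libraries the Treg had been co-injected with WT Tconv from control littermates, and in 3 libraries with HP1α KO Tconv, from mice in which a floxed allele of the heterochromatin protein HP1α had been deleted by CMV-cre, which acts in all tissues, on a mixed 129/Sv and C57BL/6 background. Mice were 6 to 12 weeks old. The labels do not say whether the libraries of a group came from separate animals, and p-values then measure the spread between these libraries, which may be technical.

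Proteins with a classical nuclear localisation signal are bound in the cytoplasm by an importin α adaptor, which is itself carried through the pore by importin β. Other importins of the β family bind their cargo directly, and exportins carry cargo with an export signal out of the nucleus. The direction is set by the GTPase Ran, whose GTP-bound form is abundant in the nucleus, releases cargo from importins and is needed by exportins to hold theirs. In T cells this traffic serves, among many proteins, the transcription factors of the STAT, NF-κB and NFAT families, which move between cytoplasm and nucleus after stimulation.

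The libraries held 87421755 to 119078882 estimated counts. The Treg markers were present throughout, with all 6 of the listed genes counted and a summed level of 3764 to 4674 CPM (counts relative to the library total, with trimmed mean of M-values, TMM, scaling). Replicate 3 of Treg with WT Tconv stood apart. Its red cell genes summed to 5596 CPM, against 373 to 681 CPM in the other 5 libraries, and its neutrophil genes to 1856 CPM, against 42.2 to 224 CPM. Its macrophage or monocyte genes reached 179 CPM, against 12.9 to 46.5 CPM. Replicate 2 of Treg with HP1α KO Tconv differed in another way, with the lowest levels of the Treg genes Foxp3 (154 CPM, against 200.1 to 252 CPM in the other 5 libraries), Il2ra (121 CPM, against 161 to 199 CPM) and Cd3e (147 CPM, against 188 to 221 CPM), and of Cd4 (688 CPM, against 729 to 843 CPM). It was not the lowest for the other Treg genes, Ctla4 and Ikzf2. Ctla4 was at 1112 to 1349 CPM with WT Tconv and at 798 to 1028 CPM with HP1α KO Tconv, without overlap, and Ikzf2 overlapped between the groups. Over all genes its counts were the furthest from those of its own group (chi-square per degree of freedom of 142 and 177, against 111.3 and 118.9 for replicate 3 with WT Tconv). As these are bulk samples, fewer cells of a type and less RNA per cell cannot be told apart.

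Kpna1 was lower in Treg co-injected with HP1α KO Tconv, and it had the largest difference among the 9 karyopherins. Kpna1 (ENSMUSG00000022905, GRCm39 chr16:35799120-35859478, plus strand) encodes an importin α known for carrying phosphorylated STAT proteins of the interferon pathways into the nucleus. Its level was 147, 145 and 162 CPM in replicates 1, 2 and 3 with WT Tconv. With HP1α KO Tconv it was 102, 103 and 82.5 CPM. The 3 libraries with WT Tconv were all above the 3 with HP1α KO Tconv, and replicate 3 of the latter was the lowest. The means were 151 CPM ± 9.31 (SD, n = 3) and 95.8 CPM ± 11.5 (SD, n = 3), which is 0.632 times as much, or -0.66 on the log2 scale with a standard error (SE) of 0.0981. Leaving out each library in turn gave log2 fold changes from -0.72, without replicate 2 with HP1α KO Tconv, up to -0.56 when replicate 3 of those was left out.

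Kpna6 (ENSMUSG00000003731, chr4:129537773-129566567, minus strand) encodes the importin α closest to that of Kpna1, with 81.8% of protein residues identical. Its level was 71.0, 66.6 and 66.9 CPM with WT Tconv and 67.7, 63.1 and 68.3 CPM with HP1α KO Tconv, so that the groups overlapped, and the log2 fold change was -0.04 (SE 0.0664), smaller than its SE. It was 0.0048 without WT Tconv replicate 1 and -0.0034 without HP1α KO Tconv replicate 2. The pair was also compared within libraries. The Kpna1 to Kpna6 ratio of counts, which does not depend on the scaling of the library, was 2.07, 2.18 and 2.43 with WT Tconv and 1.501, 1.64 and 1.21 with HP1α KO Tconv. These ratios did not overlap between the groups, which follows from Kpna1 having been chosen as lower and from Kpna6 differing little.

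Kpna3 (ENSMUSG00000021929, chr14:61601398-61677662, minus strand) and Kpna4 (ENSMUSG00000027782, chr3:68974482-69034446, minus strand) encode importin α proteins known to carry NF-κB subunits, and 85.8% of their residues are identical. All other pairs of the 5 importin α proteins except Kpna1 with Kpna6 were 47.5% to 51.7% identical. The level of Kpna3 was 70.0, 60.9 and 70.7 CPM with WT Tconv and 57.8, 61.5 and 53.0 CPM with HP1α KO Tconv. Replicate 2 of each group lay within the range shared by both, and the log2 fold change was -0.23 (SE 0.0872). The level of Kpna4 was 165.5, 164.8 and 158.6 CPM with WT Tconv and 169, 149 and 183 CPM with HP1α KO Tconv. The libraries with HP1α KO Tconv lay on both sides of those with WT Tconv, and the log2 fold change of 0.034 was smaller than its SE of 0.0831. Leaving out WT Tconv replicates 1, 2 and 3 in turn gave 0.058, 0.055 and 0.014, and it was 0.11 without HP1α KO Tconv replicate 2 and -0.036 without HP1α KO Tconv replicate 3.

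Kpna2 (ENSMUSG00000018362, chr11:106879455-106890367, minus strand) encodes an importin α known to be abundant in dividing cells. Its level was 125.0, 113.4 and 115.5 CPM with WT Tconv and 127.2, 125.3 and 123.8 CPM with HP1α KO Tconv. The groups overlapped through replicate 1 of Treg with WT Tconv, and the log2 fold change was 0.09 (SE 0.0644), or 0.14 without that library. All 12 of the listed G2 and M phase genes were counted, and their summed level, 1202 to 2029 CPM with WT Tconv and 1238 to 1478 CPM with HP1α KO Tconv, overlapped between the groups as well.

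The importin α genes were then compared per length, as CPM per kilobase of the canonical transcript. Kpna1 made up 20.3%, 21.3% and 22.9% of the summed importin α level per length with WT Tconv. With HP1α KO Tconv its share was 15.1%, 15.7% and 12.7%. Kpna2 had the largest share in every library, 46.1%, 44.8% and 43.7% with WT Tconv and 50.7%, 51.2% and 51.1% with HP1α KO Tconv. Neither share overlapped between the groups. For Kpna1 this follows from its choice as lower, and since the shares add up to the whole, its smaller share raises the others. The shares of Kpna3, Kpna4 and Kpna6 overlapped between the groups, with means of 9.84%, 14.5% and 9.33% with WT Tconv and 8.998%, 15.8% and 9.71% with HP1α KO Tconv.

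**Figure D1:**
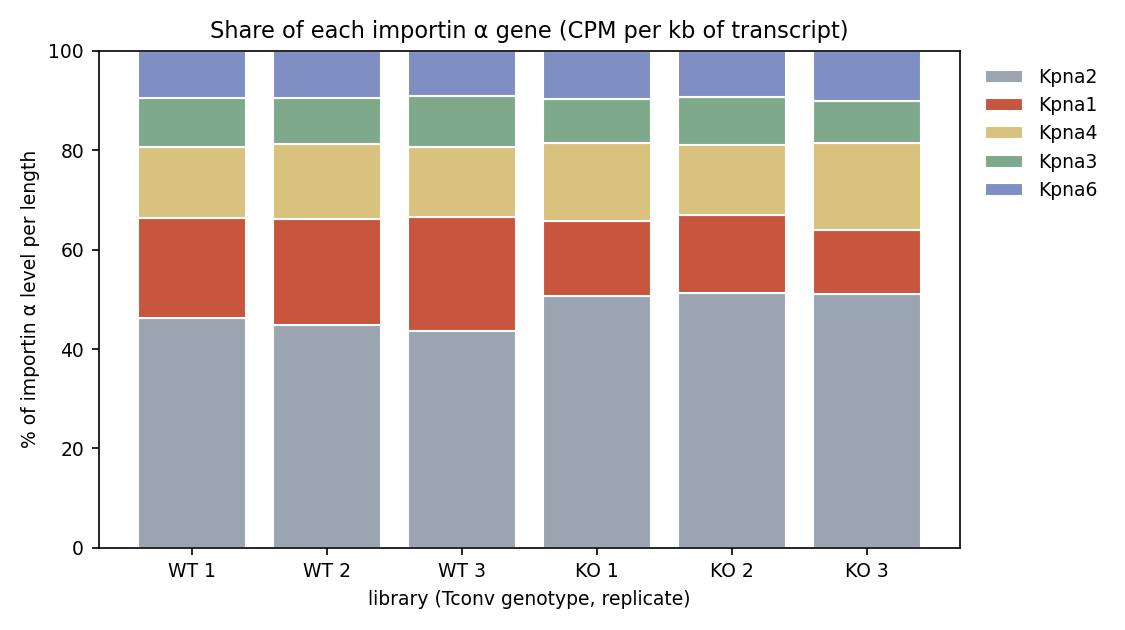
Share of each importin α gene in their summed level per length (y axis, % of CPM per kilobase of transcript) in each of the 6 libraries (x axis; WT and KO give the genotype of the Tconv, and the number is the replicate). The red Kpna1 segment takes 20.3% to 22.9% of the bar with WT Tconv and 12.7% to 15.7% with HP1α KO Tconv.

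Gm10259 (ENSMUSG00000069083, chr3:25265180-25266769, minus strand) was the only gene with no count in any library with WT Tconv and at least 20 counts in each library with HP1α KO Tconv. It is annotated as a processed pseudogene, a copy of a spliced transcript inserted elsewhere in the genome, and lies on another chromosome than Kpna2. It had 0, 0 and 0 counts with WT Tconv and 125, 109 and 205 counts with HP1α KO Tconv. In CPM the latter were 1.37, 1.09 and 2.32. Their mean was 54.5 times that of an assumed 3 counts in each library with WT Tconv. That floor is a chosen value, so the ratio is not a lower bound. Replicate 3 was the highest, and no library of the groups overlapped.

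The sequence of Gm10259 shows how little separates its reads from those of Kpna2. Its 1590 bases span the Kpna2 coding sequence from the start codon to the stop codon with no gap, and 1587 of them (99.8%) are the same in GRCm39. The 3 bases that differ are C90T, A696G and C741T, counted from 1 at the start codon, with the base of Kpna2 first. Each is the last base of its codon (codons 30, 232 and 247) and none changes the encoded amino acid. They are shown in windows of 41 bases, transcript strand, with the differing base in capitals, because these are the bases by which a read from the coding sequence can be given to either gene. The Gm10259 windows lie at chr3:25266660-25266700, chr3:25266054-25266094 and chr3:25266009-25266049. Those of Kpna2 lie at chr11:106882109-106882149 for A696G and chr11:106882064-106882104 for C741T, and the window of C90T spans an exon junction, with the differing base at position 106887458 of chromosome 11.
Kpna2 at C90T: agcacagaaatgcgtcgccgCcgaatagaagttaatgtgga
Gm10259 at C90T: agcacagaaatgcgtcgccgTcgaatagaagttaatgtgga
Kpna2 at A696G: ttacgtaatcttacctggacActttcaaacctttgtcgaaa
Gm10259 at A696G: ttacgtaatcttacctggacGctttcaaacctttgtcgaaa
Kpna2 at C741T: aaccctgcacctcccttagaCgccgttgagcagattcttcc
Gm10259 at C741T: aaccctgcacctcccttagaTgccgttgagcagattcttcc

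Reads of this study were 150 bases long. Of the 1441 windows of that length in Gm10259, 285 (19.8%) hold a differing base and 80.2% are the same in both genes, with 849 bases in the longest run without a difference. The 464 transcript bases of Kpna2 outside its coding sequence have no counterpart in Gm10259 as annotated. Read pairs reach further than single reads, and the deposited counts do not show which positions the reads covered. The assignment of counts between these genes is therefore uncertain.

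**Figure D2:**
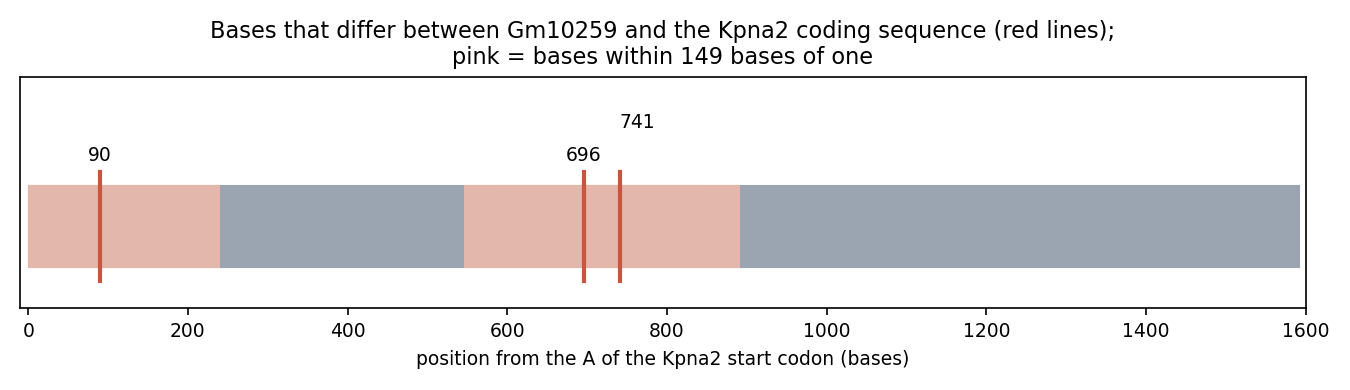
Map of the 1590 bases shared by the Kpna2 coding sequence and Gm10259 (x axis, position in bases from the start codon). Red lines mark the 3 differing bases at positions 90, 696 and 741, pink marks bases close enough to share a read of 150 bases with one of them, and grey marks the rest.

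The counts of Gm10259 were small beside those of Kpna2, which had 12014, 10955 and 13517 counts with WT Tconv and 11563, 12516 and 10931 counts with HP1α KO Tconv. Gm10259 took 1.07% (exact 95% binomial interval 0.891% to 1.27%), 0.863% (0.709% to 1.04%) and 1.84% (1.599% to 2.11%) of the summed counts of both genes with HP1α KO Tconv. The mean share was 1.26% ± 0.515 (SD, n = 3). With WT Tconv the share was 0 in each library, and the limit that a count of 0 allows, taken as 3 counts, was 0.0250%, 0.0274% and 0.0222%. The upper bounds of the exact binomial intervals there were 0.0307%, 0.0337% and 0.0273%. These intervals and limits cover counting error only. Added together, both genes reached 125.0, 113.4 and 115.5 CPM with WT Tconv and 128.5, 126.4 and 126.1 CPM with HP1α KO Tconv. These sums did not overlap between the groups, whereas the levels of Kpna2 alone did. Gm10259, chosen for its counts with HP1α KO Tconv alone, adds to the sum only there.

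Other copies of Kpna2 did not share the pattern of Gm10259. The pseudogene Gm12919 (chr4:10853843-10855436, plus strand) is identical to the Kpna2 coding sequence at 97.2% of aligned bases and had 13, 4 and 10 counts with WT Tconv and 2, 0 and 5 with HP1α KO Tconv. Gm13310 (chr2:12087423-12088803, minus strand; 97.0%) was at 0, 1 and 2 counts with WT Tconv and 4, 1 and 1 with HP1α KO Tconv. Both are near the limit of detection. Kpna2-ps (chr17:47931696-47933264, minus strand; 94.8%, with 33 gap bases besides) was not found by the search for copies and was added after its values were seen. These percentages leave gaps out, unlike the 95% identity required in that search, which used another alignment. Kpna2-ps had 13, 20 and 21 counts with WT Tconv and 3, 5 and 10 with HP1α KO Tconv, and it lies wholly antisense to exons of Med20. The counts of Kpna2-ps did not overlap between the groups and were lower with HP1α KO Tconv. Without Kpna2-ps, the other copies summed to 13, 5 and 12 counts with WT Tconv and 6, 1 and 6 with HP1α KO Tconv, which overlapped. With it, the sums were 26, 25 and 33 counts with WT Tconv and 9, 6 and 16 with HP1α KO Tconv, which did not overlap. Of the substitutions that set Gm10259 apart from Kpna2, A696G was also present in Gm13310 and Kpna2-ps, whereas C90T and C741T were in none of these 3 copies.

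**Figure D3:**
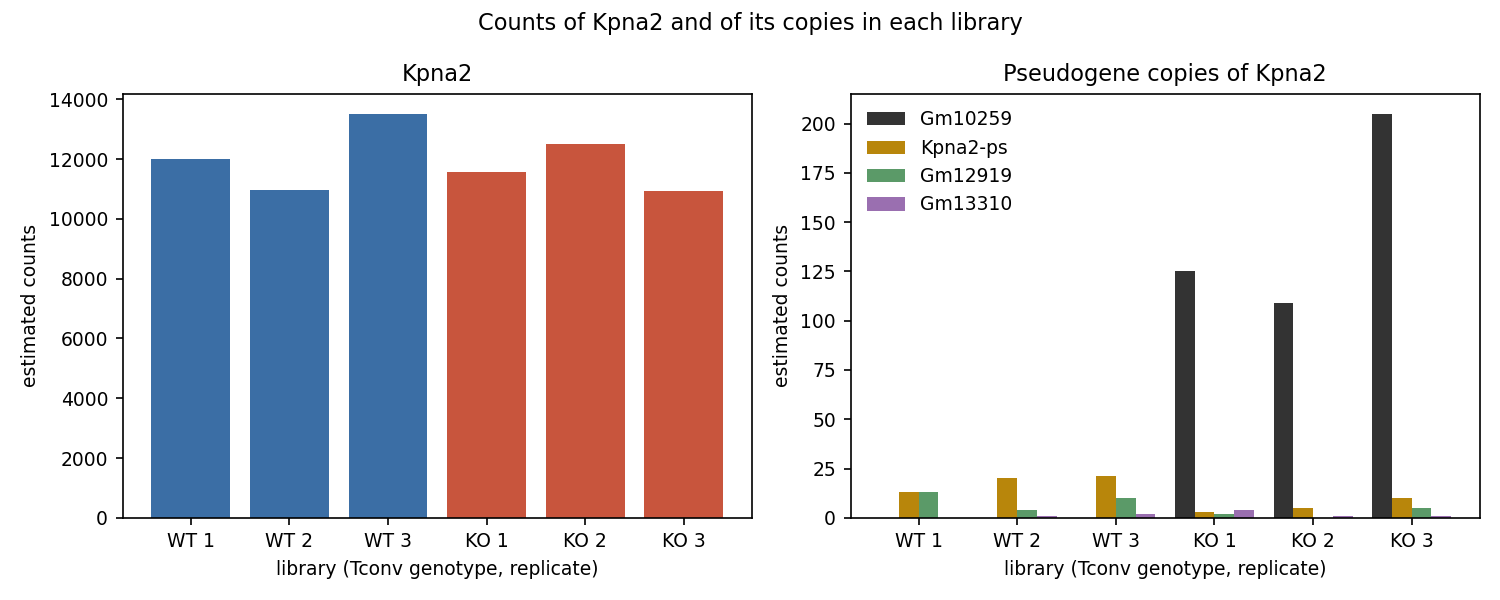
Estimated counts (y axes, linear) of Kpna2, left, and of its 4 pseudogene copies, right, in each library (x axes; Tconv genotype and replicate). Kpna2 is at 10931 to 13517 counts in all libraries, while Gm10259, black, is at 0 with WT Tconv and at 109 to 205 with HP1α KO Tconv.

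The opposite pattern, no count with HP1α KO Tconv and at least 20 counts in each library with WT Tconv, was also found for 1 gene. This was Zbtb9, which encodes a zinc finger protein, at 1102, 1920 and 1154 counts with WT Tconv but 0, 0 and 0 with HP1α KO Tconv. Its exons share 74.3% of their bases with the gene Gm50253 on the same strand, which had 1980, 1036 and 2024 counts with WT Tconv and 2891, 3334 and 2837 with HP1α KO Tconv. As for Gm10259, its counts are thus open to assignment to another gene.

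Among the 3 genes of the importin β family, Ipo7 was lower, and Kpnb1 and Tnpo1 overlapped between the groups. Kpnb1 (ENSMUSG00000001440, chr11:97050540-97078856, minus strand) encodes importin β, the partner of every importin α. Its level was 298, 272 and 285 CPM with WT Tconv and 299, 282 and 348 CPM with HP1α KO Tconv. Replicate 3 with HP1α KO Tconv was the highest of the 6, and the log2 fold change of 0.12 (SE 0.0901) was 0.026 without that library and 0.18 without replicate 2 of its group. A noncoding gene on the opposite strand, Gm11583, overlaps 6.77% of its exonic bases and had 7, 10 and 8 counts with WT Tconv but 0, 0 and 0 with HP1α KO Tconv. Relative to importin β, Kpna1 counts were 0.493, 0.534 and 0.569 per Kpnb1 count with WT Tconv and 0.340, 0.367 and 0.238 with HP1α KO Tconv.

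Ipo7 (ENSMUSG00000066232, chr7:109617444-109656091, plus strand) encodes an importin known to carry ribosomal proteins and histones. Its level was 176, 174 and 181 CPM with WT Tconv and 152.0, 151.4 and 157.5 CPM with HP1α KO Tconv. The groups did not overlap and were each within a narrow range, with means of 177 CPM ± 3.41 (SD, n = 3) and 154 CPM ± 3.36 (SD, n = 3). The log2 fold change was -0.21 (SE 0.0583). Tnpo1 (ENSMUSG00000009470, chr13:98974996-99069430, minus strand) encodes transportin, which imports RNA-binding proteins. Its level was 194, 183 and 176 CPM with WT Tconv and 181, 172 and 200.1 CPM with HP1α KO Tconv, and the groups overlapped with a log2 fold change of 0.0015 (SE 0.0772). The sign of so small a value was not stable. Leaving out WT Tconv replicates 1, 2 and 3 in turn gave 0.053, 0.0083 and -0.030, and leaving out the HP1α KO Tconv replicates gave 0.026, 0.051 and -0.060. A processed pseudogene 97.3% identical to Tnpo1, Gm6493, had 31, 24 and 32 counts with WT Tconv and 20, 8 and 24 with HP1α KO Tconv, against 16498 to 20605 for Tnpo1 itself.

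Xpo1 (ENSMUSG00000020290, chr11:23205554-23248249, plus strand) encodes the exportin of cargo with leucine-rich export signals, NFAT among it. Its level was 274, 291 and 286 CPM with WT Tconv and 239.5, 237.9 and 255.2 CPM with HP1α KO Tconv. The groups did not overlap, although the lowest library with WT Tconv and the highest with HP1α KO Tconv were close. The means were 284 CPM ± 8.95 (SD, n = 3) and 244 CPM ± 9.57 (SD, n = 3). On the log2 scale this was -0.22 (SE 0.0642). The Xpo1 to Kpnb1 ratio of counts was 0.917, 1.07 and 1.00 with WT Tconv and 0.802, 0.845 and 0.734 with HP1α KO Tconv.

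**Figure D4:**
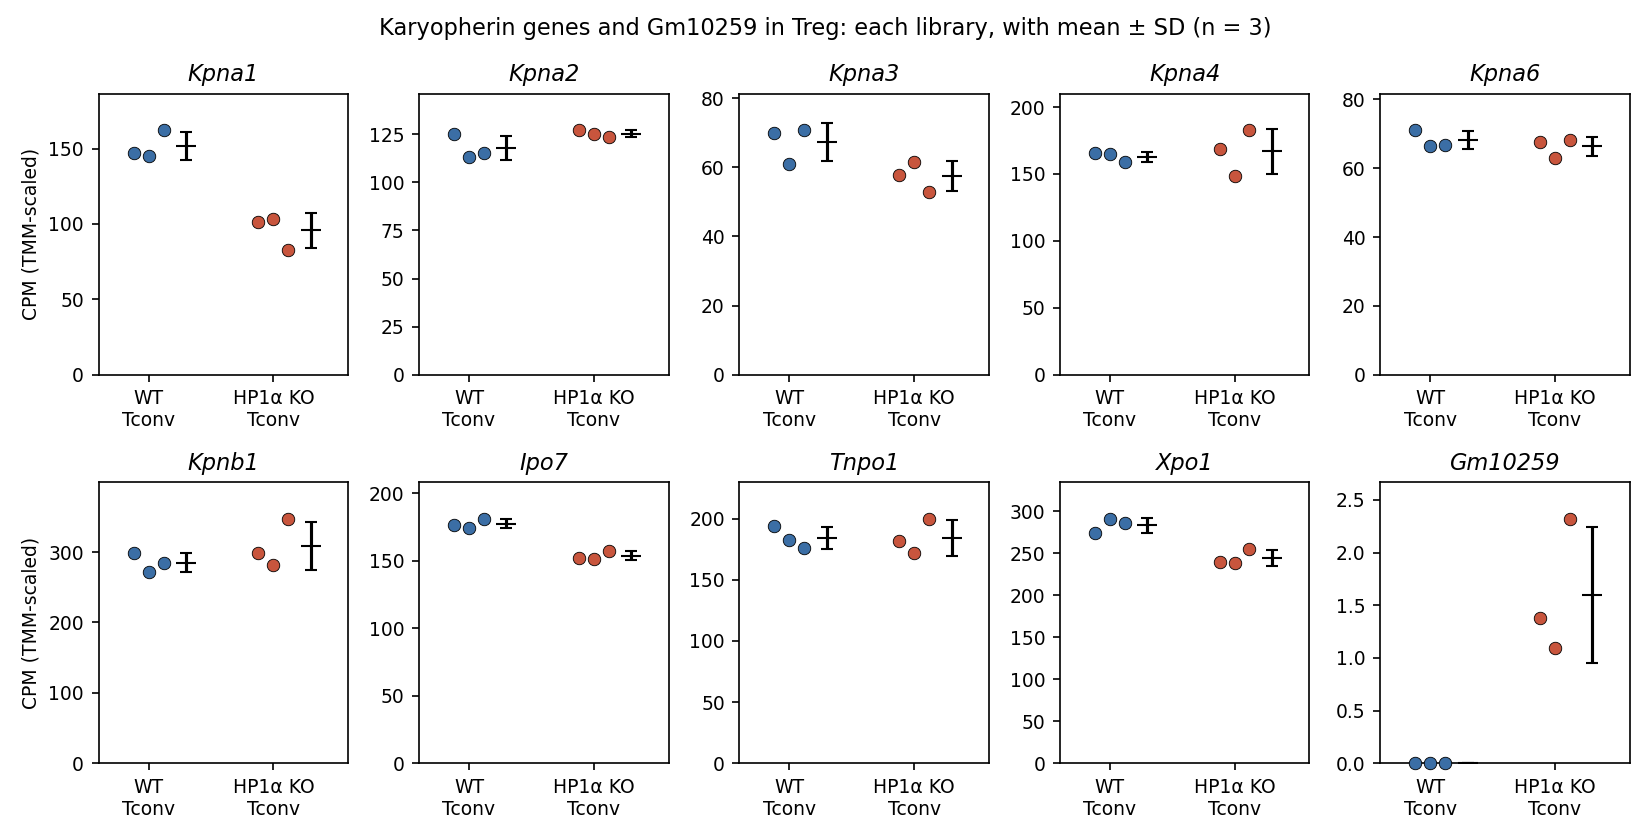
Level of the 9 karyopherin genes and Gm10259 (y axes, TMM-scaled CPM, linear from 0 and different for each gene) in Treg co-injected with WT Tconv (blue) or HP1α KO Tconv (red). Points are libraries and black bars the mean ± SD (n = 3). The groups do not overlap for Kpna1, Ipo7, Xpo1 and Gm10259, nor for 23% of all genes tested. Kpna1 and Gm10259 were chosen on this comparison.

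Per kilobase of transcript, the order of the karyopherins with WT Tconv was Kpna2 (57.4 CPM per kilobase), Kpnb1 (47.5), Xpo1 (46.1), Ipo7 (34.9), Kpna1 (27.5), Tnpo1 (20.5), Kpna4 (18.5), Kpna3 (12.6) and Kpna6 (11.9). In this order Kpnb1 and Xpo1, and Kpna3 and Kpna6, differed by less than the sum of their SDs. With HP1α KO Tconv, Kpna1 moved from rank 5 to rank 7, at 17.4 CPM per kilobase, behind Tnpo1 (20.5) and Kpna4 (18.9). There Tnpo1 and Kpna4, Kpna4 and Kpna1, and Kpna6 and Kpna3 were within the sum of their SDs. So were Tnpo1 (SD 1.61) and Kpna1 (SD 2.09), and the change of rank is therefore not resolved. Gm10259 was last in both groups, at 0 and at 1.00 CPM per kilobase.

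Calls depended on the tool. In the edgeR quasi-likelihood fit with Benjamini-Hochberg adjustment, 0 of the 18321 genes tested (0%) had an adjusted p-value under 0.05, and limma-voom called 0 as well (0%). All 10 genes described here passed the filter on low counts, Gm10259 through the libraries with HP1α KO Tconv alone, and 0 of them were called by either. At an unadjusted p-value under 0.05 edgeR gave 2656 genes (14.5%), of which 1377 (7.52% of those tested) were lower with HP1α KO Tconv. Gm10259 on the higher side and Kpna1, Kpna3, Ipo7 and Xpo1 on the lower side were among them. The groups did not overlap for 4222 genes (23%), 2120 of them lower with HP1α KO Tconv (11.6%), among which were Kpna1, Ipo7 and Xpo1. DESeq2, the tool of the study, called 526 of 12097 genes (4.35%) by adjusted p-value alone, with Kpna1 among them, and gave Gm10259 no adjusted p-value. After the filter used with edgeR it called 698 of 11820 genes (5.91%), with Kpna1, Ipo7 and Xpo1 among them. The study also required an absolute log2 fold change over 1, which Kpna1, Ipo7 and Xpo1 did not reach. Since the genes were chosen on this comparison, nothing is read from these counts.

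The genes whose log2 CPM followed that of Kpna1 most closely over the 6 libraries, of 13248 genes that averaged 100 counts or more, were Pdzd8 (Pearson r = 0.994), Plk4 (0.992), Rtn4 (0.992), Mcm9 (0.991) and Gm50012 (0.991). Pdzd8 and Rtn4 encode proteins of the endoplasmic reticulum, Plk4 a kinase of centriole duplication and Mcm9 a helicase of DNA repair. These correlations are a description over libraries that fall into 2 groups, and any gene that differs between the groups like Kpna1 will rank high. Pdzd8, for example, was at 120, 121 and 123 CPM with WT Tconv and 106.8, 108.7 and 99.3 CPM with HP1α KO Tconv. Among the other karyopherins, r with Kpna1 was 0.891 for Ipo7, 0.889 for Kpna3 and 0.803 for Xpo1. It was 0.20 for Kpna6 and below 0 for Tnpo1, Kpna4, Kpna2 and Kpnb1, the lowest being -0.69 for Kpnb1.

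The rest of the nuclear transport machinery was examined with a list of 71 genes, of which 69 passed the filter. Neither edgeR nor DESeq2 called any of them (0 of 69 and 0 of 68 with an adjusted p-value, against 0% and 4.35% of all genes). At an unadjusted p-value under 0.05 edgeR gave 8 (11.6%), of which 3 were higher and 5 lower with HP1α KO Tconv, against 14.5% of all genes. The groups did not overlap for 16 of the 69 (23.2%, against 23% of all genes), 8 of them lower (11.6% of the 69, as of all genes). The median log2 fold change was 0.0068, beside -0.0085 over all genes tested, and single genes ranged from -0.79 for Ranbp17, at under 1.2 CPM, to 0.38 for Nup37. Ranbp17 was at 0.125, 0.0828 and 1.153 CPM with WT Tconv and 0.165, 0.220 and 0.408 CPM with HP1α KO Tconv, and its log2 fold change turned to 1.33 without WT Tconv replicate 3. The 2 genes not tested were Kpna7, with at most 3 counts in a library, and Nup58, listed under its older symbol Nupl1, with 3 counts in all. A same-strand gene, Gm49336, with 8563 to 13818 counts, shares 48.8% of the exonic bases of Nup58.

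In each class, the 2 genes of smallest unadjusted p-value are described, and none passed the adjustment over all genes by edgeR. Among the 9 other importins tested, Tnpo2, a close relative of Tnpo1, was at 99.83, 91.91 and 98.03 CPM with WT Tconv and at 103, 115 and 104 CPM with HP1α KO Tconv (log2 fold change 0.15, edgeR adjusted p = 0.383). Ipo4, which imports histones, had a log2 fold change of 0.14 (edgeR adjusted p = 0.508). Both sets of libraries were separate, with higher values in Treg with HP1α KO Tconv. Without replicate 2 of that group the log2 fold changes were 0.098 for Tnpo2 and 0.071 for Ipo4.

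Of the 7 other exportins, Xpo5, the carrier of microRNA precursors, had a log2 fold change of 0.10 (edgeR adjusted p = 0.521), which was 0.059 without HP1α KO Tconv replicate 3. Xpo7, an exportin known to be abundant in red cell precursors, was at 98.8, 96.9 and 171 CPM with WT Tconv and at 98.7, 102.7 and 99.99 CPM with HP1α KO Tconv. Its high value was in replicate 3 of Treg with WT Tconv, the library with the high red cell genes. The log2 fold change was -0.28 (edgeR adjusted p = 0.632) and was 0.038 without that library. The Kpna1 log2 fold change without the same library was -0.61. Whether the red cell genes of that library bear on either value was not tested.

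Among the 8 genes of the Ran cycle, Ranbp2, a large protein of the cytoplasmic face of the pore, was at 577, 588 and 598 CPM with WT Tconv and at 501, 545 and 478 CPM with HP1α KO Tconv (log2 fold change -0.21, edgeR adjusted p = 0.259). Ranbp3, a cofactor of Xpo1 in export, was at 91.5, 96.2 and 96.1 CPM with WT Tconv and at 103, 127 and 103 CPM with HP1α KO Tconv (log2 fold change 0.23, edgeR adjusted p = 0.312). Without HP1α KO Tconv replicate 2, the value of Ranbp3 was 0.12. Both genes were separate between the groups, in opposite directions.

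Of the 28 nucleoporins tested, Ahctf1, which binds chromatin at the start of pore assembly, was at 208, 196 and 215 CPM with WT Tconv and at 181, 179 and 173 CPM with HP1α KO Tconv (log2 fold change -0.22, edgeR adjusted p = 0.229). Rae1, which acts in mRNA export at the pore, was at 59.1, 58.3 and 61.7 CPM with WT Tconv and at 66.8, 67.2 and 68.03 CPM with HP1α KO Tconv (log2 fold change 0.17, edgeR adjusted p = 0.262). Of the 17 mRNA export genes, Nxt2, a partner of the export receptor Nxf1, was the lowest, at 7.19, 7.85 and 7.92 CPM with WT Tconv and 6.00, 6.22 and 4.90 CPM with HP1α KO Tconv (log2 fold change -0.42, edgeR adjusted p = 0.237). Thoc7, of the THO complex that couples transcription to export, had a log2 fold change of -0.15 (edgeR adjusted p = 0.339).

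**Figure D5:**
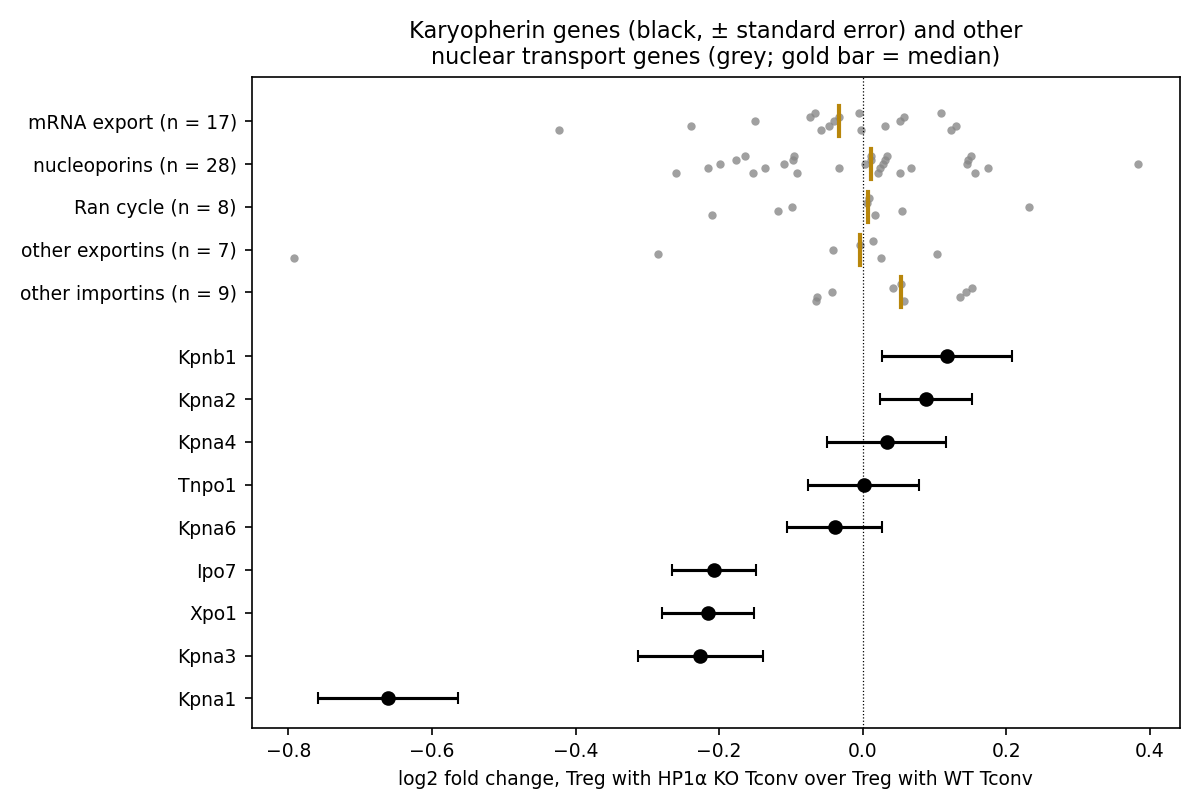
Log2 fold change between the groups, HP1α KO Tconv over WT Tconv (x axis), for the 9 karyopherins (black points with the SE) and for the 69 other nuclear transport genes tested (grey points, 1 per gene, by class, with the class median in gold). Kpna1 lies at -0.66, and all grey points except Ranbp17, at -0.79 but 1.33 without WT Tconv replicate 3, lie between -0.42 and 0.38.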

How the data were processed

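The authors trimmed 150-base paired reads of stranded total RNA, aligned them with STAR to GRCm39 (Ensembl annotation) and quantified genes with Salmon within nf-core/RNA-seq. The table the authors deposited gives unnormalized estimated counts for each gene, as whole numbers. The quantification divides ambiguous reads between similar or overlapping genes by a model. All per-sample columns were used.

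Counts were tested with edgeR version 4.0.16 (glmQLFit with robust and legacy set, glmQLFTest, TMM, filterByExpr, group as the sole term) in R version 4.3.3. A call was a Benjamini-Hochberg adjusted p-value under 0.05 over all genes tested. Fold changes are HP1α KO over WT Tconv, and their standard error (SE) was derived from the F statistic (size of the log2 fold change divided by the root of F). No pair of replicates agreed within sampling noise (the lowest chi-square was 21.6 per degree of freedom), so none was treated as a repeat deposit of another. Depth ranged from 87421755 to 119078882 counts.

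The genes described and the lists were chosen with earlier results of these data known. Named besides them were the 2 transport genes of each class with the smallest unadjusted p-value (Ranbp17, Nup37, Kpna7 and Nup58 were added after their values were seen), the 5 genes most correlated with Kpna1 in log2 CPM (prior count 2), genes with 0 counts in 1 group and at least 20 in each library of the other, and table rows matching a listed gene at 95% identity over 80% of the shorter transcript (BLAST+ version 2.17.0). Positions, sequences and exon overlaps came from GENCODE vM39 of GRCm39. The assembly is that of the authors, but their counts were made with an Ensembl annotation, whose gene models can differ. Of the listed symbols, 2 were matched through RefSeq synonyms. Alternatives were DESeq2 version 1.42.0, limma-voom (limma version 3.58.1), 3 scalings, 2 filters, the replicate number as a block, each library left out, and Kpna2 summed with its copies. Runs of DESeq2 after filterByExpr, and on 5 libraries (no replicate 3 with WT Tconv), were chosen after seeing the data.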

Additional observations from a re-analysis of the deposited data

How the results depend on the processing

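The log2 fold changes of Kpna1, Kpna2, Kpna3, Kpnb1, Ipo7, Xpo1 and Gm10259 kept their direction under all alternatives in which they were fitted, from -0.72 to -0.56 for Kpna1. Those of Kpna4 (-0.036 without HP1α KO Tconv replicate 3) and Kpna6 (0.0048 without WT Tconv replicate 1) changed sign once each, and that of Tnpo1, from -0.060 to 0.053, in 9 of 17. With its copies summed into it, Kpna2 had a log2 fold change of 0.11. That of Kpnb1 was 0.026 when HP1α KO Tconv replicate 3 was left out. Xpo7 went from -0.41 to 0.038 over the libraries left out, and reversed without WT Tconv replicate 3, the library with the high red cell and neutrophil genes (0.038 in edgeR, 0.034 in DESeq2). Ranbp17, at 1.153 CPM or less, went from -1.27 to 1.33 and reversed without the same library (1.33 in edgeR, 1.34 in DESeq2).

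Over all genes, edgeR called 0. DESeq2 called 526 of 12097 genes tested (159 higher, 367 lower). It called 698 of 11820 (248 higher, 450 lower) after filterByExpr and 181 of 13429 (70 higher, 111 lower) without WT Tconv replicate 3. Upper quartile scaling gave 1 of 18321, no filter beyond 1 count gave 38 of 29199 (7 higher, 31 lower), and leaving out each library gave 0 to 2. Of the 10 genes described, DESeq2 called 1 (Kpna1), 3 after filterByExpr, and 2 (Kpna1 and Gm10259) without WT Tconv replicate 3. Upper quartile scaling called 1 (Gm10259) and no filter 2 (Gm10259 and Kpna1). The cause of these differences was not tested. The nuclear transport list had 0 calls in each alternative. No scaling moved the median log2 fold change of all genes beyond -0.013 to 0.029.

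With the replicate block, 1 gene was called over all genes (0 higher, 1 lower), 0 of the 10 genes described and 0 of the transport list. Deviations of same-numbered libraries correlated from -0.04 to 0.18, so the numbers were not taken to pair the samples.

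With 3 libraries a group, the standard errors of the karyopherins were 0.0583 to 0.0981, and whether Kpna1, at -0.66, was called depended on the tool and the filter, as given above. Gm10259 differs from the Kpna2 coding sequence at only 3 bases. What decided the division of counts between these genes is not known, as the reads themselves were not analysed here.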
